A study of Mus musculus with 10 samples.

Results

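Slc39a14 encodes ZIP14, the metal transporter deleted in the KO mice of this study, and its chromatin accessibility was followed in each mouse. The counts hold 8 peaks under its Ensembl gene ID, ENSMUSG00000022094, of 246479 peaks and 44580 gene IDs in all. The members are every peak that carries this ID, whatever its values. Intestinal epithelial cells (IECs) were isolated from the proximal small intestine (labelled duodenum), sorted, and profiled by ATAC-seq in 5 WT mice, named WT1 to WT5, and 5 KO mice, named KO6 to KO10. The WT mice are Zip14+/+ and the KO mice Zip14-/-, both bred by crossing heterozygotes of a whole-body knockout strain backcrossed to C57BL/6. The mice were young adults on a natural-component diet, and the methods give females unless stated otherwise. No treatment separates the groups. The knockout allele is a targeted deletion of a run of introns within the gene, and every cell of a KO mouse carries it, so effects that begin outside the epithelium are part of the comparison.

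ZIP14 belongs to the SLC39 family, whose members carry zinc and other divalent metals into the cytosol from outside the cell or from vesicles. It moves zinc, manganese and non-transferrin-bound iron, and in enterocytes it lies mainly on the basolateral side, facing the blood. In liver it is induced during inflammation, and loss of its function disturbs manganese excretion. In ATAC-seq a transposase cuts DNA that is free of nucleosomes, so open regions collect more reads than closed ones. A stretch of DNA that a knockout allele lacks can give no reads, and a peak within it should be empty in homozygous mice.

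Total counts were between 5202949 and 15775481 in WT mice and between 4731176 and 6094983 in KO mice, so that counting error weighs more on weak peaks in KO mice. A count of 0 is compatible with up to 3 counts, and limits of this kind and the intervals of shares cover counting error only. Values per mouse are given as counts and as CPM (counts per 1000000 counts in the 81022 peaks that passed the filter on low counts, scaled by TMM factors). Means are followed by ± SD over the 5 mice of a genotype. Log2 fold changes (KO against WT) come from quasi-likelihood fits in edgeR, with p adjusted by Benjamini-Hochberg over all features tested, and exact tests are two-sided permutation tests over the mice, whose smallest p is 0.00794. Of the markers fixed for epithelium, blood, vascular, red and connective tissue cells, 23 genes in all, 0 could be paired with an ID, so the labelled cell type was not checked against its markers. WT2 moved the count of peaks called over the whole genome more than any other mouse did, from 0 to 1880 when it was left out, and the values of the 8 peaks, of their sums and of the share of peak 3 were recomputed without it and without every other mouse.

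The 8 peaks of Slc39a14 follow each other without a gap in the running number of the peaks, which is not given but was inferred from the order of the entries. That number was checked with 17 genes of chromosome 14 whose IDs are paired with a symbol in the study's supplement. All 16 neighbouring pairs of them were in the order of their RefSeq positions. The Slc39a14 peaks lie between those of Stc1 (chromosome 14, 69029289 to 69041401 of GRCm38.p6) and those of Pcdh17 (84443563 to 84537565), 205 peaks after the former and 1223 before the latter. RefSeq places Slc39a14 itself between the same genes, from 70303467 to 70351452 on chromosome 14. The peaks are called peak 1 to peak 8 here in the direction of rising coordinates. The counts carry no coordinates of the peaks, so which of them cover the promoter, an exon or an intron was not determined. A gene ID had a median of 4 peaks, and 22.7% of gene IDs had 8 or more.

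Strong peaks stand at both ends of the gene's row of peaks and weaker ones between them. Peak 8 held 44.6% ± 6.41 (SD, n = 5) of the counts of Slc39a14 in WT mice, and peak 1 held 29.0% ± 4.77. In mean CPM of WT mice, peak 8 was above 90.7% of all peaks and peak 1 above 86.9%. Peak 3 came next, above 68.6% of all peaks, with 8.50% ± 3.46 of the gene's counts. The other 5 peaks held between 2.38% and 4.24% each on average in WT mice. Over all 8 peaks the gene had 965 counts in the 5 WT mice and 474 in the 5 KO mice.

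Peak 3 was lost in every KO mouse. It had 17 counts in WT1, 8 in WT2, 21 in WT3, 11 in WT4 and 16 in WT5, and 0 counts in each of KO6, KO7, KO8, KO9 and KO10. The 10 libraries thus divided as their genotype labels do, with all 5 KO mice below all 5 WT mice, a pattern found in 0.501% of all peaks and in 1.21% of those past the filter. Peak 3 is described first because its values were known, so its choice among the 8 is no independent result. In CPM the WT mice had 1.82 ± 0.610, with single mice between 1.01 and 2.48 (exact test, p = 0.00794). Leaving out any single mouse gave an exact p between 0.00794 and 0.0159, and it was 0.00794 with total counts or with the normalized read counts of the authors. With 0 counts in every KO mouse, these exact p-values were fixed in advance by the group sizes and are no test of stability.

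**Figure D1:**
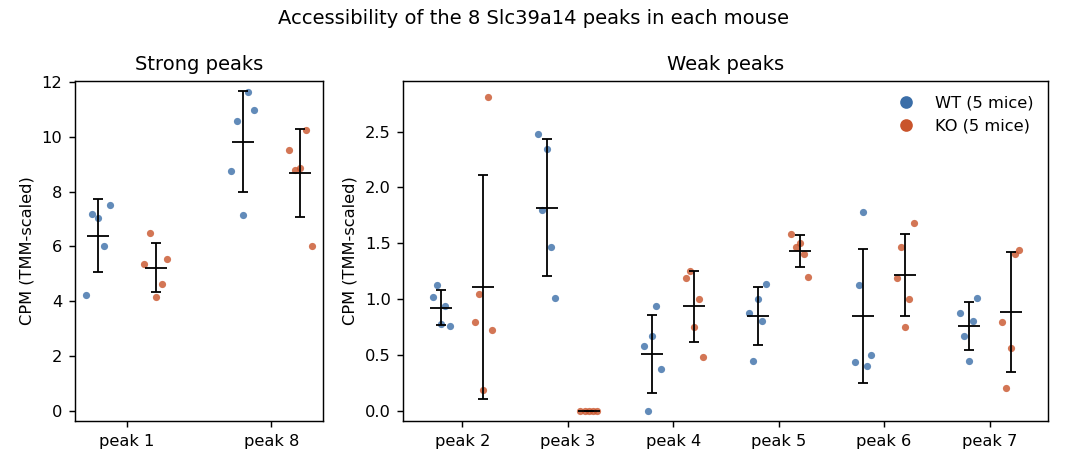
CPM (TMM-scaled) of each Slc39a14 peak in each mouse, with the strong peaks 1 and 8 on the left and the weaker peaks 2 to 7 on the right, on separate axes. Points are mice, horizontal marks are means and bars are SD (n = 5). Peak 3 is at 0 in the 5 KO mice and between 1.01 and 2.48 in the WT mice, and in peak 5 each KO mouse is above each WT mouse on this scale.

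WT2, the shallowest WT library with a total of 5202949 counts, had 8 counts in peak 3, and 4 of the KO libraries were deeper. Depth as a cause of the 0 counts was not tested. At the pooled rate of the WT mice, 1.67 CPM, the KO mice would have had 8.44, 8.01, 8.89, 8.33 and 6.96 counts (KO6 to KO10), or 40.6 together. The 0 counts seen allow up to 3 counts over the KO group, or 0.124 CPM. The pooled WT rate was 13.5-fold that limit, a ratio that leaves out counting error and the spread between mice in the WT rate. For a single KO mouse the limit lay between 0.565 CPM in KO8 and 0.722 CPM in KO10.

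A share of the gene's own counts does not depend on scaling between mice. Peak 3 took 12.9% of the Slc39a14 counts in WT1, 7.84% in WT2, 11.1% in WT3, 6.40% in WT4 and 4.34% in WT5, and 0 of 71 to 112 counts in the KO mice (exact test of the shares, p = 0.00794). The share varied among WT mice. That of WT5, the deepest library, had an exact binomial 95% interval of 2.50% to 6.95%, below the interval of 7.68% to 19.8% of WT1. Pooled over mice, 73 of 965 counts lay in peak 3 in WT (7.56%, exact binomial 95% interval 5.98% to 9.42%). In KO mice 0 of 474 counts lay there (exact binomial 95% interval up to 0.775%). Both pooled intervals leave out the spread between mice, and WT5 alone gave 369 of the 965 WT counts.

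**Figure D2:**
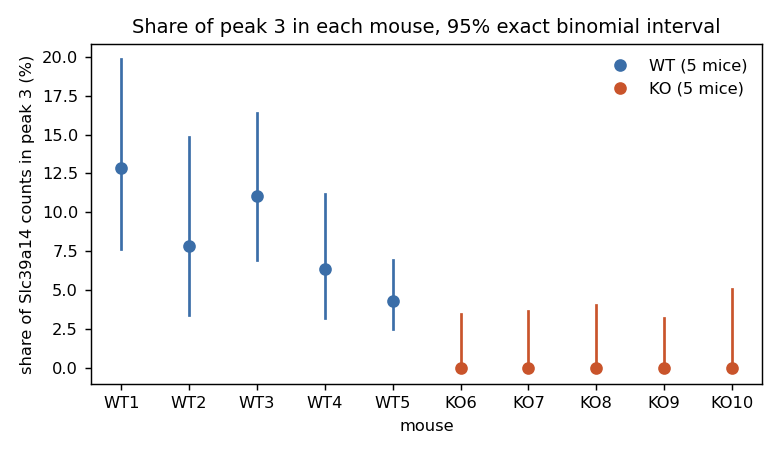
Share of the Slc39a14 counts that lay in peak 3, in percent, for each mouse. Points are the shares and lines the exact binomial 95% intervals from that mouse's counts. The 5 WT mice lie between 4.34% and 12.9% and the 5 KO mice at 0.

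Across the genome 24 peaks were empty in the 5 KO mice while every WT mouse had 1 count or more, 0.00974% of all peaks, and 0 peaks had the opposite pattern. KO libraries held fewer counts (median 5659163 against 8677347 in WT mice), so a weak peak is empty more easily in KO than in WT mice. Peak 3 had 73 counts over the WT mice, while the other 23 had between 8 and 18, the highest under ENSMUSG00000030043. Of the 74446 peaks with at least 8 counts in every WT mouse, 1, peak 3, was at 0 in all KO mice, and each of the others had 10 or more counts over the KO mice. Among 10674 other peaks with 66 to 80 counts over the WT mice, KO counts had a median of 46 and a 1st percentile of 21. A single peak among them was also at 0 in KO mice, and all of its WT counts came from WT4 and WT5. The cut of 8 and the range of 66 to 80 were both taken from the WT counts of peak 3 itself. In edgeR's fit over all 246479 peaks without a filter, peak 3 had the third lowest p (adjusted p = 3.25e-05). There 0.16% of peaks were called at an adjusted p under 0.05 in either direction, and 0.0962% of peaks were called lower in KO mice. These 394 calls varied from 33 without WT5 to 1623 without WT2. The adjusted p of peak 3 stayed between 3.25e-05 and 0.00114 in this fit with each mouse left out and with total counts. Peak 3 did not pass the filter on low counts of the main fit.

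**Figure D3:**
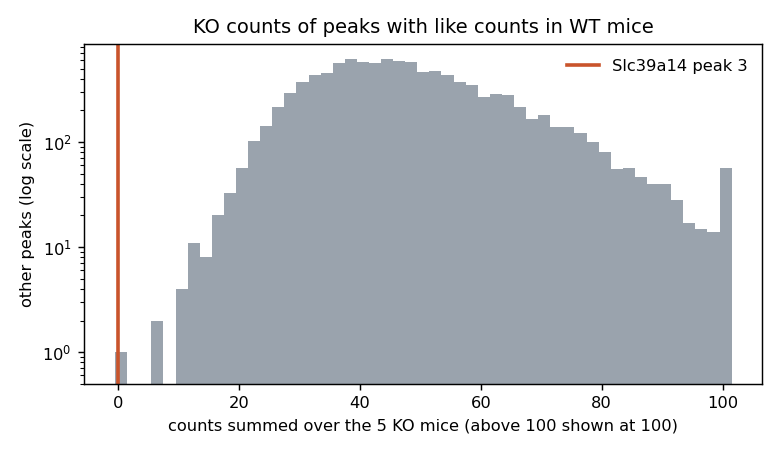
Number of peaks (log scale) by their counts summed over the 5 KO mice, for the 10674 other peaks with 66 to 80 counts over the 5 WT mice. The vertical line marks Slc39a14 peak 3 at 0 counts, where the peaks of like WT counts have a median of 46.

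The other 7 peaks of Slc39a14 kept counts in KO mice, those next to peak 3 included. Peak 2 had 27 counts over the KO mice and 38 over the WT mice, and peak 4 had 23 in each genotype. The loss therefore covered 1 of the 8 peaks. Whether peak 3 lies inside the deleted introns was not tested, since the counts carry no positions of the peaks.

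Peaks 1 and 8 passed the filter on low counts, and neither was called. Peak 1 had 29, 32, 63, 45 and 119 counts in WT1 to WT5 and 27, 31, 22, 23 and 23 in KO6 to KO10. WT mice averaged 6.39 ± 1.33 CPM against 5.23 ± 0.899 for KO mice, and the groups overlapped, with 1 KO mouse below every WT mouse. The fitted log2 fold change was -0.31 ± 0.19 (standard error), with a 95% interval from -0.71 to 0.10 (edgeR, adjusted p = 0.461). The exact test gave p = 0.143, and 0.0317 without WT1, which had the lowest CPM of the WT mice. In the fit without a filter the value was -0.47 at an unadjusted p of 0.0298 (edgeR, adjusted p = 0.304), where 7.09% of all peaks were lower in KO at an unadjusted p under 0.05. That fit is scaled otherwise, and over the 81022 peaks in both fits its log2 fold changes differed from those of the main fit by a median of -0.17. Accessibility of bulk cells does not tell fewer cells with an open site from less opening in each cell.

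Peak 8, the strongest, had 60, 47, 64, 87 and 174 counts in WT1 to WT5 and 48, 42, 47, 51 and 25 in KO6 to KO10. WT mice averaged 9.81 ± 1.84 CPM and KO mice 8.68 ± 1.60, a gap smaller than the SD of either group. KO10 was the one KO mouse below every WT mouse. The fit gave a log2 fold change of -0.17 ± 0.17 (standard error), with a 95% interval from -0.52 to 0.19 (edgeR, adjusted p = 0.672), and the exact test gave p = 0.333. The fitted value was -0.07 without KO10, -0.27 without WT3, -0.33 without a filter and -0.01 with 1 surrogate variable, and the difference in CPM was -0.466 without KO10 and -1.80 without WT3. At an adjusted p under 0.05, 0.0% of the 81022 peaks were called, against 16.0% at an unadjusted p under 0.05 (5.65% lower in KO), where the p of peaks 1 and 8 were 0.131 and 0.335.

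The 5 weak peaks that remained had few counts, none passed the filter, and their mean CPM was higher in KO than in WT mice. Peak 5 alone among them had separate groups in TMM-scaled CPM. It had 6, 2, 9, 6 and 18 counts in WT1 to WT5 and 8, 7, 8, 7 and 5 in KO6 to KO10, or 0.853 ± 0.259 CPM and 1.43 ± 0.144 CPM. In CPM all 5 KO mice were above all 5 WT mice, by 0.580 on average (exact test, p = 0.00794). This pattern was found in 1.93% of all peaks. With total counts and with the authors' normalized read counts the groups overlapped, with 4 KO mice above every WT mouse in each, and the exact p was 0.0159. With a mouse left out the exact p was between 0.00794 and 0.0159. As a share of the gene's counts, peak 5 took 1.96% to 4.88% in WT mice and 6.25% to 8.99% in KO mice, separate groups (exact test, p = 0.00794). The empty peak 3 raises such shares in KO mice. Over the 7 retained peaks alone the WT shares of peak 5 were 2.13% to 5.33%, and the groups were still separate (exact test, p = 0.00794). The fit over all peaks without a filter, which models counting error, gave 0.48 ± 0.39 (standard error) on the log2 scale, with an interval from -0.30 to 1.25 (edgeR, adjusted p = 0.595).

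Peak 4 had 0 to 7 counts in WT mice and 2 to 6 in KO mice, with 3 KO mice above every WT mouse in CPM (exact test, p = 0.0873, and 0.0397 without KO10). As a share of the counts of all 8 peaks the exact p of peak 4 was 0.0317, and 0.0635 as a share of the 7 retained peaks. Peak 6 had 3 to 16 counts in WT mice and 4 to 7 in KO mice, with overlapping CPM (exact test, p = 0.270, and 0.0476 without WT3). Peak 2 rested on KO9, with 14 counts where the other KO mice had 1 to 5. Its KO mean of 1.11 CPM stood against 0.924 CPM in WT mice, and the difference turned to -0.24 CPM without KO9 (exact test, p = 0.873 with all mice). Peak 7 had 3 to 16 counts in WT mice and 1 to 7 in KO mice, a difference of 0.12 CPM that turned to -0.01 without KO9 and -0.02 without KO10 (exact test, p = 0.643 with all mice). These exact p-values are unadjusted, over 8 peaks and several scalings.

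The 7 retained peaks were set beside peaks of like strength. In the fit without a filter, the 2000 peaks nearest in strength to each of the 5 weak peaks had median log2 fold changes between 0.17 and 0.24, while those nearest to peaks 1 and 8 had -0.19 and -0.23. In the main fit, which has no value for the weak peaks, the medians beside peaks 1 and 8 were nearer to 0, at -0.03 and -0.07. In the fit without a filter, peaks 2, 4, 5, 6 and 7 had 0.14, 0.64, 0.48, 0.36 and -0.03, and peaks 1 and 8 had -0.47 and -0.33, all on a scale shifted by the median of -0.17 given above. The value of peak 6 was 0.92 without WT3, and 0.22, 0.19 and 0.18 without WT1, WT4 and WT5, and 0.23 without KO10. That of peak 2 was -0.55 without KO9 and 0.41 without KO8, and that of peak 7 changed sign in 6 of 11 alternatives. Among the peaks of like strength, between 32.5% and 74.1% lay below each of the 5 weak peaks, 13.6% lay below peak 1 and 29.7% below peak 8. The 5 weak peaks together, a grouping made after their values were seen, averaged 3.90 ± 0.479 CPM in WT mice against 5.58 ± 1.37 in KO mice. The exact test gave an unadjusted p of 0.0397, 0.0794 with total counts and 0.0873 with the authors' normalized read counts. This CPM is on the scale of the main fit, unlike the medians beside the weak peaks.

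**Figure D4:**
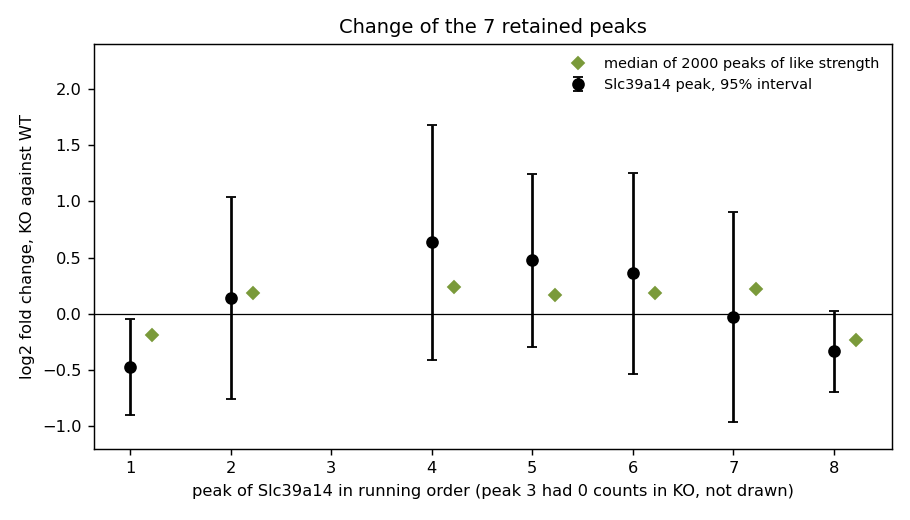
Log2 fold change of KO against WT for the 7 Slc39a14 peaks that kept counts in KO mice, from edgeR's fit over all peaks without a filter, with 95% intervals. Diamonds are the medians of the 2000 peaks nearest in strength. Peaks 2, 4, 5 and 6 lie above 0 and peaks 1 and 8 below, each with its diamond on the same side, peak 7 lies at -0.03 with its diamond above 0, and 6 of the 7 intervals include 0, that of peak 1 excepted.

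Summed over its 8 peaks, Slc39a14 had 132, 102, 190, 172 and 369 counts in WT1 to WT5 and 103, 99, 89, 112 and 71 in KO6 to KO10. The WT mean was 21.9 ± 1.70 CPM and the KO mean 19.5 ± 2.48, with 2 KO mice below every WT mouse. In the fit over counts summed per gene ID, it differed by -0.26 ± 0.11 (standard error) on the log2 scale, with a 95% interval from -0.49 to -0.03 (edgeR, unadjusted p = 0.0308, adjusted p = 0.144). In that fit 3.91% of 36715 gene IDs were called at an adjusted p under 0.05 (1.01% lower in KO), 27.5% passed an unadjusted p of 0.05 and 11.8% were lower at an unadjusted p under 0.05. The 1434 IDs called were not stable, with 0 called without WT3, WT5, KO6, KO9 or KO10, 25 with 1 surrogate variable and 3311 without WT2. The adjusted p of Slc39a14 was between 0.116 and 0.326 over the other fits. The exact test of the CPM gave p = 0.127, while it gave 0.0397 with total counts or without WT1, 0.0317 with the TMM factors of the fit over gene IDs and 0.0238 with the authors' normalized read counts.

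Without peak 3, a split made because that peak was at 0 in KO mice, the difference was smaller. The 7 retained peaks had 115, 94, 169, 161 and 353 counts in WT1 to WT5, and in KO mice the sums above are theirs. The means were 20.1 ± 2.26 CPM for WT and 19.5 ± 2.48 for KO, with 3 KO mice inside the range of the WT mice (exact test, p = 0.667). The fit gave -0.13 ± 0.12 (standard error) on the log2 scale, with a 95% interval from -0.38 to 0.11 (edgeR, adjusted p = 0.461), and the median of the 2000 gene IDs nearest in strength was -0.06. The fitted value was -0.07 without WT5, -0.08 with 1 surrogate variable and -0.19 without WT1. The difference in CPM, -0.619, turned to 0.066 without KO8, and it was -1.61 with total counts and -1.60 with the TMM factors of the fit over gene IDs (exact tests, p = 0.325 and 0.246). Set against the counts of the 10 nearest peaks on each side, the 7 peaks had 0.166 ± 0.0207 counts per neighbouring count in WT mice against 0.160 ± 0.0259 in KO mice (exact test, p = 0.690).

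These 20 neighbouring peaks belong to 5 other gene IDs, which the files do not pair with names, and 0 of the 20 were at 0 in all KO mice. The nearest on either side carry ENSMUSG00000115025 (before peak 1) and ENSMUSG00000058745 (after peak 8). Of the 12 with 50 or more WT counts, the lowest had 18 counts over the KO mice. The lowest KO count of any neighbour was 2, against 25 in WT mice, at a pooled ratio of 0.144. Of the 10 that passed the filter, 3 had a log2 fold change below 0 and 7 above 0, with a median of 0.02, and 1 was at an unadjusted p under 0.05, where 16.0% of all peaks past the filter were. In the fit without a filter the same 10 peaks had 7 values below 0 and 3 above 0, with a median of -0.14, and 3 were at an unadjusted p under 0.05. Of all 20 neighbours 6 were, beside 13.8% of all peaks in that fit, and 5 of the 20 were both at such a p and lower in KO, against 7.09% of all peaks.

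**Figure D5:**
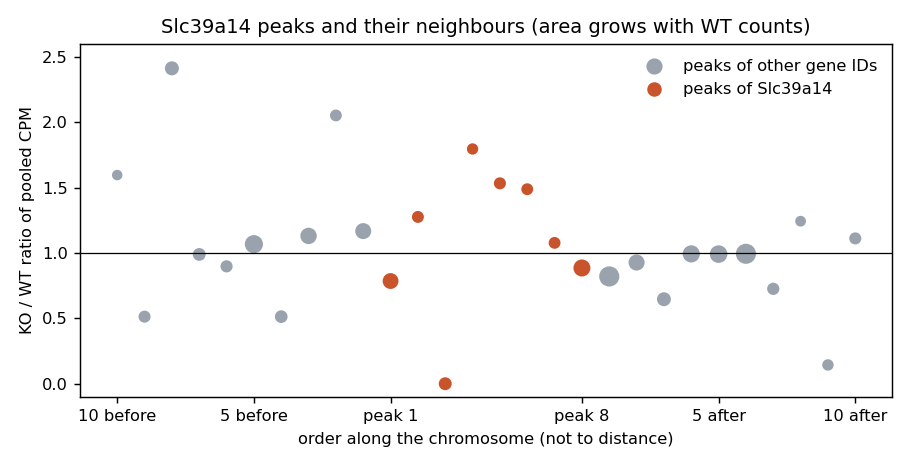
Ratio of pooled CPM, KO over WT, for the 8 Slc39a14 peaks and the 10 nearest peaks on each side, in the order of the running number and not to distance. The area of a point grows with its WT counts. Peak 3 of Slc39a14 is at 0, while the neighbours with 50 or more WT counts lie between 0.513 and 2.41.

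Symbols were available for gene IDs in the study's table of differentially expressed genes, and 137 of these had a mean count of 50 or more. Over the 10 mice, the summed accessibility of Slc39a14 in log2 CPM was most alike, by Pearson's r, to that of Miga1, which encodes a protein of mitochondrial fusion (0.60), Tc2n (0.55), Fam89a (0.55), Grm4, a metabotropic glutamate receptor (0.49), and Pet117, an assembly factor of cytochrome c oxidase (0.47). Over the 137 genes r had a median of -0.05 and a lowest value of -0.68, larger in size than the highest. All 137 come from a list of genes that differed between KO and WT in RNA, and r over both genotypes includes the difference between them. Values of a mouse share its library and its depth, and these r are descriptions. Of the 42 other genes of zinc, manganese and iron transport listed for comparison, among them the zinc importer Slc39a4, the manganese exporter Slc30a10 and the metallothioneins, 0 could be paired with an ID, and they were not analysed here.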

How the data were processed

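IECs of 5 WT and 5 KO mice were profiled by ATAC-seq. The authors deposited raw counts per peak for 1 peak set shared by all mice, with an Ensembl gene ID per peak, and a normalized signal. Dividing the one by the other gave a constant for each mouse, which lay within 2.2e-05 of the size factor that DESeq2 computes by its median-of-ratios method. The submitters' processing notes name mm10. How reads were aligned, how duplicates and the transposase offset were treated, which tool called peaks and by which rule they were given to genes is not given in the sources used here. Duplicates would make counts less independent than they look, and the gene rule decides which peaks are counted for Slc39a14. Of 246501 entries, 22 held no value. A second deposited file is identical and was not used.

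Entries carry no number or position. They were taken to be in the order of running numbers sorted as text, and were put back in numerical order, an inference checked against RefSeq positions. Raw counts were tested with edgeR 4.0.16 (estimateDisp, glmQLFit, glmQLFTest, R 4.3.3), with TMM factors, no covariate beside genotype, filterByExpr and Benjamini-Hochberg adjustment, over all peaks (81022 passed) and over counts summed per gene ID (36715 passed). The standard error is the log2 fold change divided by the square root of F. Single values were compared by exact permutation over the 252 labelings of the mice. Peaks 2 to 7 did not pass the filter, so their fitted values are from the fit without it, which is an alternative. Log2 CPM used a prior count of 2. The edgeR fit with the filter was tested on simulated counts summed per gene ID. The fits over peaks, the fit without a filter and the permutation tests were not tested in this way. Python 3.11.15, pandas 2.3.3 and scipy 1.17.1 were used.

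The peaks and lists were chosen with earlier results of these data known. The genes named are the 8 peaks, their neighbours, listed metal genes, the 5 genes most alike among those with a symbol and a mean count of 50, and peaks at 0 in all KO mice. Symbols came from the study's list of differentially expressed transcripts, read from page images, so single IDs may be misread. Gene IDs without a symbol are given as counts. Alternatives were DESeq2 1.42.0, total counts, loess offsets (span 0.3), no filter, at least 10 counts in every mouse, 1 surrogate variable (sva 3.50.0) and leaving out each mouse. The labels do not say whether mice shared litters or preparation days.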

Additional observations from a re-analysis of the deposited data

Results flagged for a closer look

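The CPM of each peak and sum, the shares of the 8 peaks and the ratio to the neighbouring peaks were examined in both genotypes. Of 38 groups of 5 mice with any spread, 0 had an extreme mouse separated from the next by more than 0.71 of the distance between highest and lowest, which about 1 group in 20 would show by chance.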

How the results depend on the processing

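Where a value changed with a setting, the cause was not tested. The loss of peak 3 and its share of the gene's counts kept their direction and side of the threshold with a mouse left out, with total counts, with the authors' normalized read counts and in the fits without a filter, as far as each was run. The exact tests of peak 3 and of its share could not have come out otherwise, since every KO count was 0. DESeq2, loess offsets, the minimum of 10 counts and the surrogate variable gave no value for peak 3, which did not pass their filters. With a mouse left out the share differed by -9.54 to -7.41 percentage points, and as a share of 12 peaks, the 8 and the nearest 2 on each side, by -3.08. On the log2 scale the difference of the 8 summed peaks lay between -0.30 and -0.21 and that of the 7 retained peaks between -0.19 and -0.07 over all 16 alternatives, none at an adjusted p under 0.05 in either edgeR or DESeq2. In CPM and by the exact permutation test, the difference of the 8 peaks passed p = 0.05 with total counts (-3.28), with the TMM factors of the fit over gene IDs (-3.29) and as authors' normalized read counts (-26.8), and lay between -3.19 and -1.75 with a mouse left out. That of the 7 retained peaks ran from -1.45 to 0.066 with a mouse left out, and was -1.61 with total counts and -1.60 with the TMM factors over gene IDs. Peak 2 ran from -0.24 to 0.42 CPM and peak 7 from -0.0182 to 0.29 CPM with a mouse left out. Without a filter their log2 fold changes ran from -0.55 to 0.41 and from -0.26 to 0.20, and that of peak 7 was 0.048 with total counts. The count of all peaks at an adjusted p under 0.05 was 0 in the main fit (12978 at an unadjusted p under 0.05), 562 by DESeq2, 394 without a filter, 859 with at least 10 counts in every mouse, 7 with 1 surrogate variable and 0 to 1880 with a mouse left out. Over gene IDs it was 1434, against 304 after loess offsets, 893 with total counts, 25 with 1 surrogate variable, 2177 by DESeq2 and 0 to 3311 with a mouse left out. The 5 edgeR fits with 0 calls had 7147 to 8650 gene IDs at an unadjusted p under 0.05. Without a filter 33 to 1623 peaks were called with a mouse left out. Scaling by the authors' factors, by gene ID factors and by neighbouring peaks, the shares of peaks 4 and 5, and the fits without a filter that left out a mouse or used total counts, were chosen after seeing the data. The comparison of metal transport genes was not run, since their IDs could not be paired with names. Peaks 2 to 7 had at most 21 counts in a mouse, which limits the differences that could be seen there. No paired analysis was possible because WT mice are numbered 1 to 5 and KO mice 6 to 10.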
